A study of Mus musculus with 6 samples.

Results

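The miR-26 family is described here across small RNA libraries from mouse embryonic fibroblasts, connective tissue cells grown from embryos. Its members were taken by name and not by any measured value, though earlier results of these data were known at that point. They are the hairpin genes Mir26a-1, Mir26a-2 and Mir26b, 3 of the 1155 miRNA rows of the count table. The study compared 3 libraries labelled WT with 3 labelled Fbxw7 KO, whose titles carry the word MUT. All 6 came from cultured fibroblasts in medium with serum. The labels give the genotype and a number from 1 to 3, but no allele, strain or embryo of origin, so a p-value here measures the spread between libraries, which may be technical. FBXW7 is the subunit of a ubiquitin ligase that recognises Myc, cyclin E, Jun and Notch for destruction. Fbxw7 messenger RNA itself was not analysed here.

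A miRNA hairpin is cut into a 5p and a 3p arm, and the arm that stays in the silencing complex pairs with messenger RNAs through its seed, bases 2 to 8. For miR-26 the 5p arm is the main product. The family lies inside the Ctdsp genes, which encode small phosphatases that act on the C-terminal domain of RNA polymerase II and on the retinoblastoma protein. It is known for repressing Ezh2, the histone methyltransferase of Polycomb complex PRC2, for restraining cell cycle entry together with its host genes, and for being repressed by Myc.

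The mature arms are shown because they set what the counts can and cannot separate. Capitals mark the seed, and the sequences are those of RefSeq on GRCm38.p6, in which all 3 members were found by symbol.
miR-26a-5p, from both Mir26a-1 and Mir26a-2: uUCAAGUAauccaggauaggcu
miR-26b-5p: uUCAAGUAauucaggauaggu
miR-26a-1-3p: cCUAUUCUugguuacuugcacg
miR-26a-2-3p: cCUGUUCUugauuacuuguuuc
miR-26b-3p: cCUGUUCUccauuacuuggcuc

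The 5p arms of all 3 hairpins carried the same seed, UCAAGUA. Among the 1679 mature miRNA names in the RefSeq table, the 2 that had this seed were miR-26a-5p and miR-26b-5p. Over the 21 bases they share, the 5p arms differed by C11U and C21U, counted from the 5′ end with the base of miR-26a-5p first, and miR-26a-5p was 1 base longer. The 3p arms differed more. Those of Mir26a-1 and Mir26a-2 had 6 differences in 22 bases, and their seeds were CUAUUCU and CUGUUCU. Mir26a-2 and Mir26b shared the 3p seed CUGUUCU, with 4 differences between the arms. The mature miRNAs miR-6932-3p and miR-7039-3p have that seed too. Their rows held 25 and 2 counts over the 6 libraries and did not reach the level needed for testing.

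The hairpins themselves show where the a-copies cannot be told apart. In Mir26a-1 and Mir26a-2 capitals mark the longest run that both contain, and in Mir26b they mark miR-26b-5p.
Mir26a-1, chr9:119031796-119031885, plus strand: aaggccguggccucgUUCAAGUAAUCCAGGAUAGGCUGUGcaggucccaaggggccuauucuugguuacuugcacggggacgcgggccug
Mir26a-2, chr10:126995530-126995613, plus strand: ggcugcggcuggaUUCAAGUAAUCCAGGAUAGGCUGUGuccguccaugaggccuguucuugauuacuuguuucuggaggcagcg
Mir26b, chr1:74394310-74394394, plus strand: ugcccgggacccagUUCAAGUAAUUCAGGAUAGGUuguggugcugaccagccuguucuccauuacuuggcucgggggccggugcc

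The run common to Mir26a-1 and Mir26a-2 was 25 bases long and held the whole of miR-26a-5p. A 22-base read of that arm therefore has an identical position at each locus. Of the 22-base windows in Mir26a-1, 4 of 69 occurred in another hairpin of the RefSeq table, and of those in Mir26a-2, 4 of 63, including in both cases the one that is miR-26a-5p. None of the 64 windows of Mir26b did, and the longest run it shared with an a-copy was 11 bases. The counting command recorded by the authors does not turn on reads with several alignments, which the program leaves out by default. Where the alignment lists both positions, a read of miR-26a-5p is thus counted in neither row. Mir26a-1 and Mir26a-2 then hold what can be placed at 1 locus, such as the 3p arm, the loop and 5p reads that reach past the common run. The share of miR-26a-5p reads in these rows was not tested, and the count table does not split a row by arm.

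**Figure D1:**
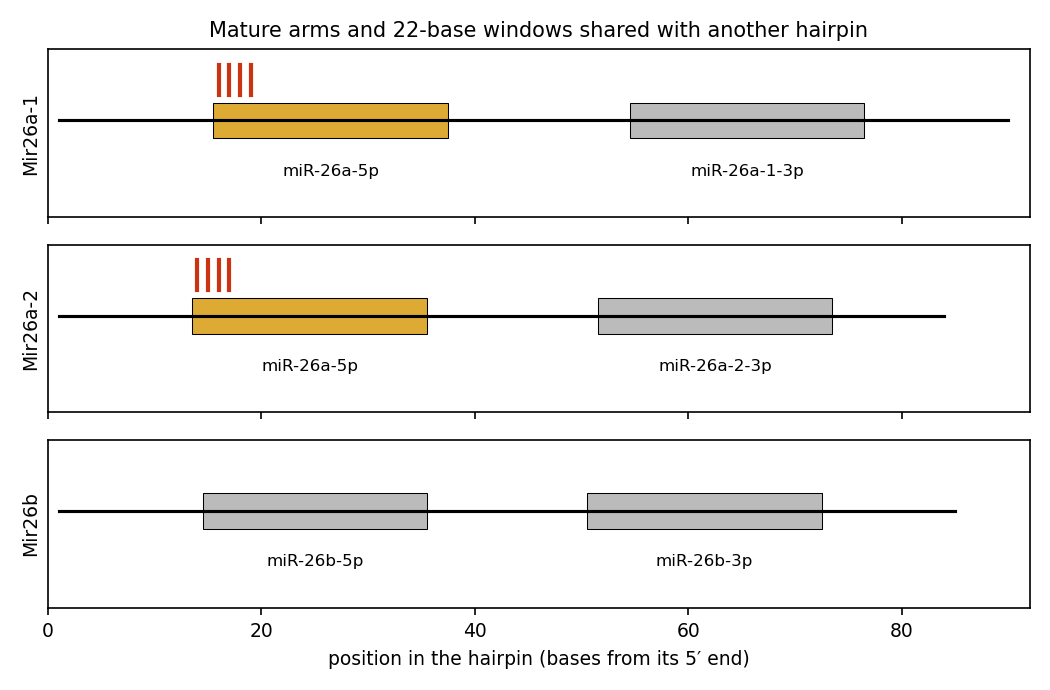
Positions of the 5p and 3p arms along the Mir26a-1, Mir26a-2 and Mir26b hairpins, in bases from the 5′ end. Gold boxes are arms found in another hairpin and grey boxes are arms found in 1 hairpin; each red tick is the start of a 22-base window that another hairpin also contains, 4 in each a-copy and none in Mir26b.

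The members share their setting in the genome. On mm10, per GENCODE M21, Mir26a-1 lies in intron 5 of Ctdspl (transcript Ctdspl-201, with 8 exons), 1543 bases into an intron of 3283 bases. Mir26a-2 lies in intron 5 of Ctdsp2 (transcript Ctdsp2-202, with 8 exons), 1621 bases into an intron of 1946. Its last base is also the first base of an exon in 2 other Ctdsp2 transcripts. Mir26b lies in intron 4 of Ctdsp1 (transcript Ctdsp1-201, with 7 exons), 234 bases into an intron of 564. Each hairpin has the strand of its host, and none overlaps another row of the count table. The host transcripts were not analysed here.

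The libraries held 2932439 to 5019700 counts, with 484 to 532 rows above 0 in each. Fibroblast miRNAs made up 53.3% to 54.6% of counts in WT and 54.8% to 57.8% in Fbxw7 KO. Mir21a and Mir143 supplied most of that share, and Mir22, also on the fibroblast list, was at 0 in all libraries. Lists for other cell types together stayed small: at most 0.0588% for neuronal and 0.0409% for muscle miRNAs in any library. The defining rows Mir126a, Mir126b, Mir142, Mir124a-1, Mir124a-2, Mir1a-1 and Mir1a-2 were at 0, but each of them either overlaps another row of the table or has a paralog, and a 0 there is no measure of endothelial, blood, neuronal or muscle cells. Mir155, on the blood list, was at 0 as well. Muscle miRNAs stood at 0.0141% to 0.023% in WT and 0.0218% to 0.0409% in Fbxw7 KO, and their part in the results below was not tested. In a principal component plot of all tested miRNAs the first component, with 65.2% of the variance, separated WT (−6.81 to −6.19) from Fbxw7 KO (6.46 to 6.61). The second component, with 17.5%, set Fbxw7 KO replicate 3 (−6.45) apart from Fbxw7 KO replicates 1 and 2 (2.9 and 3.55). A lower level in such bulk samples cannot distinguish fewer cells from less RNA per cell.

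Mir26b supplied nearly all counts of the family. It had 17354, 14549 and 11320 counts in WT replicates 1 to 3 and 11153, 10119 and 15430 in Fbxw7 KO replicates 1 to 3. Mir26a-2 had 267, 230 and 168 counts in WT and 203, 190 and 352 in Fbxw7 KO. Mir26a-1 had 17, 10 and 7 counts in WT and 13, 11 and 13 in Fbxw7 KO. The order Mir26b, Mir26a-2, Mir26a-1 held in each of the 6 libraries.

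Per hairpin length the same order was found. In the deposited FPKM values, which are counts divided by hairpin length and by a scaled library total, Mir26b averaged 38449 ± 3693 over the WT libraries and 43149 ± 3706 over the Fbxw7 KO libraries (SD, n = 3 each). Mir26a-2 stood at 598 ± 70.2 and 876 ± 186 FPKM. Mir26a-1 stood at 28.1 ± 9.57 and 41.7 ± 4.44 FPKM. The lowest Mir26b value of any library, 34511 FPKM, was far above the highest of Mir26a-2, 1091 FPKM, so these levels differed by much more than the spread between libraries. Since reads of miR-26a-5p may lie outside the counts, the gap was not read as a difference in how much miRNA the hairpins yield.

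Among the 283 miRNAs abundant enough to test, Mir26b ranked 33rd by mean FPKM, Mir26a-2 158th and Mir26a-1 274th. Next to Mir26b (40799 FPKM over all 6 libraries, SD 4192) came Mir25 above (44981, SD 16174) and Mirlet7e below (39341, SD 3543). Next to Mir26a-2 (737, SD 198) came Mir664 above (753, SD 123) and Mir16-1 below (723, SD 202), and next to Mir26a-1 (34.9, SD 10.02) came Mir1298 (37.7, SD 26.3) and Mir3095 (33.5, SD 4.55). No member differed from these neighbours by more than the spread over libraries.

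Loss of Fbxw7 left the well-measured member, Mir26b, within the spread between libraries. Its levels in CPM (counts relative to library totals scaled by the TMM method) were 3483, 3459 and 2943 in WT replicates 1 to 3. They were 3519, 3438 and 3953 in Fbxw7 KO replicates 1 to 3. The groups overlapped, since Fbxw7 KO replicate 2 fell below WT replicates 1 and 2; WT replicate 3 was the lowest library and Fbxw7 KO replicate 3 the highest. WT libraries averaged 3295 ± 305 CPM and Fbxw7 KO libraries 3637 ± 277 (SD, n = 3 each). The log2 fold change was 0.14 (SE 0.13, 95% interval −0.15 to 0.44, edgeR adjusted p = 0.465). As a ratio this interval runs from 0.9 to 1.35. The value was 0.06 without WT replicate 3. It was 0.09 when Fbxw7 KO replicate 3 was left out, and 0.01 with scaling factors taken outside the chromosome 12 miRNA region.

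Mir26a-2 showed the clearest separation of the genotypes, but did not pass the test over all miRNAs. Its levels were 53.6, 54.7 and 43.7 CPM in WT replicates 1 to 3 and 64.0, 64.6 and 90.2 CPM in Fbxw7 KO replicates 1 to 3. The Fbxw7 KO libraries all lay above the WT libraries, as they did in 23.7% of the 283 tested miRNAs, and 43.8% separated in either direction. Fbxw7 KO replicate 3 was well above the other Fbxw7 KO libraries. The means were 50.6 ± 6.06 and 72.9 ± 14.9 CPM (SD, n = 3), with a log2 fold change of 0.53 (SE 0.197, 95% interval 0.08 to 0.97). The unadjusted edgeR p was 0.0258, a level under 0.05 that 35.7% of tested miRNAs reached, and the edgeR adjusted p was 0.0850. The exact 2-sided permutation p was 0.1, the smallest that 3 against 3 libraries can give. The separation held under each of the 4 library scalings tried, and the log2 fold change was 0.35 when Fbxw7 KO replicate 3 was left out (edgeR adjusted p = 0.179).

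Mir26a-1 was too thinly counted for its difference to be resolved. It had 3.41, 2.38 and 1.82 CPM in WT replicates 1 to 3 and 4.10, 3.74 and 3.33 CPM in Fbxw7 KO replicates 1 to 3. The groups overlapped by a small margin, since WT replicate 1 lay above Fbxw7 KO replicate 3, and with unscaled library totals they did not overlap. The log2 fold change was 0.52 (SE 0.34, 95% interval −0.25 to 1.28, edgeR adjusted p = 0.29). Pooled over libraries, 37 Fbxw7 KO and 34 WT counts gave a ratio of shares of 1.47, with an exact 95% interval of 0.899 to 2.42 that covers counting error only. The row was tested because all 3 Fbxw7 KO libraries reached the minimum level, while 1 of 3 WT libraries did. Without WT replicate 1 the log2 fold change was 0.80 and without WT replicate 3 it was 0.33.

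**Figure D2:**
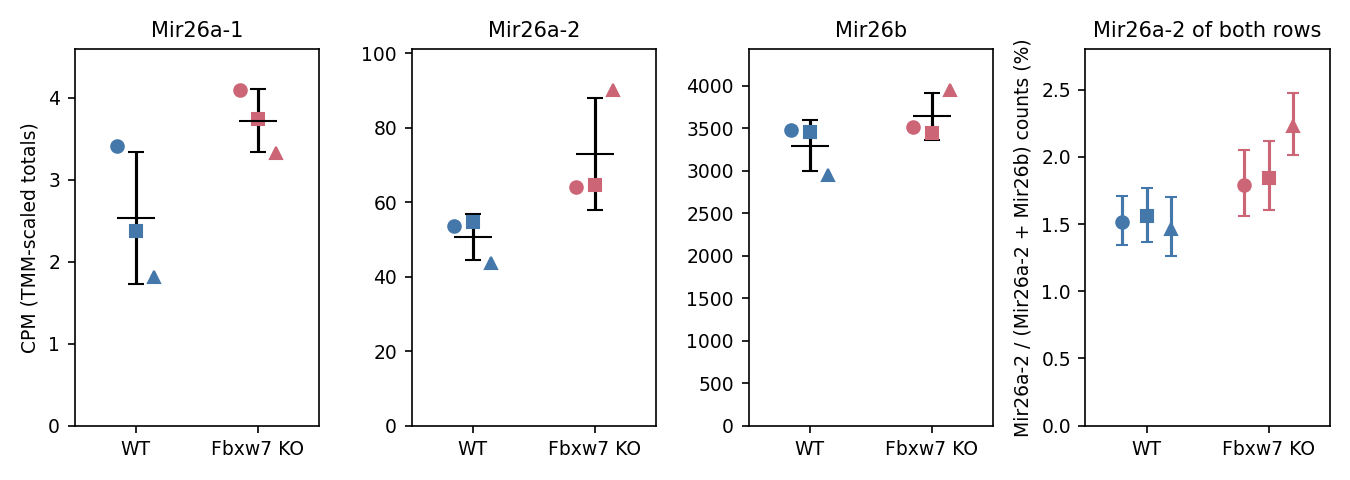
Levels of the 3 members in CPM, and the percent of Mir26a-2 among Mir26a-2 and Mir26b counts, in WT (blue) and Fbxw7 KO (red) libraries; circles, squares and triangles are replicates 1, 2 and 3. Black bars are mean ± SD of 3 libraries, and coloured bars in the last panel are 95% Wilson intervals. Library values of the groups do not overlap in the Mir26a-2 panel and in the last panel, which use the same Mir26a-2 counts. In the last panel the intervals of Fbxw7 KO replicates 1 and 2 do overlap those of WT. Of single tested miRNAs, 43.8% separated in either direction.

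Of the 3 members, 0 passed the edgeR test at an adjusted p under 0.05, against 25.4% of all tested miRNAs (72 of 283). That background moved with the libraries used. It was 14.6%, 12.2% and 23% when WT replicate 1, 2 or 3 was left out, and 16.8%, 11.9% and 27.2% for Fbxw7 KO replicate 1, 2 or 3. At an unadjusted p under 0.05 the count was 1, Mir26a-2. DESeq2 and limma likewise called 0 members, with 1 below 0.05 unadjusted. In edgeR the unadjusted count was 0 with scaling factors taken outside the chromosome 12 region. It was also 0 without WT replicate 3 and without Fbxw7 KO replicate 3. All 3 log2 fold changes were positive, as were 151 of the 283 in all, and the median over all tested miRNAs was 0.05. The shared sign was not read as a result. Mir26a-1 passed the count filter through its Fbxw7 KO libraries, which favours a positive value, and Mir26b had 0.14 (SE 0.13). With scaling factors taken outside the chromosome 12 region that median was −0.07, and the members had 0.39 (Mir26a-1), 0.40 (Mir26a-2) and 0.01 (Mir26b). Calls over all miRNAs were 43 higher and 29 lower with the TMM factors and 30 higher and 34 lower with those factors.

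**Figure D3:**
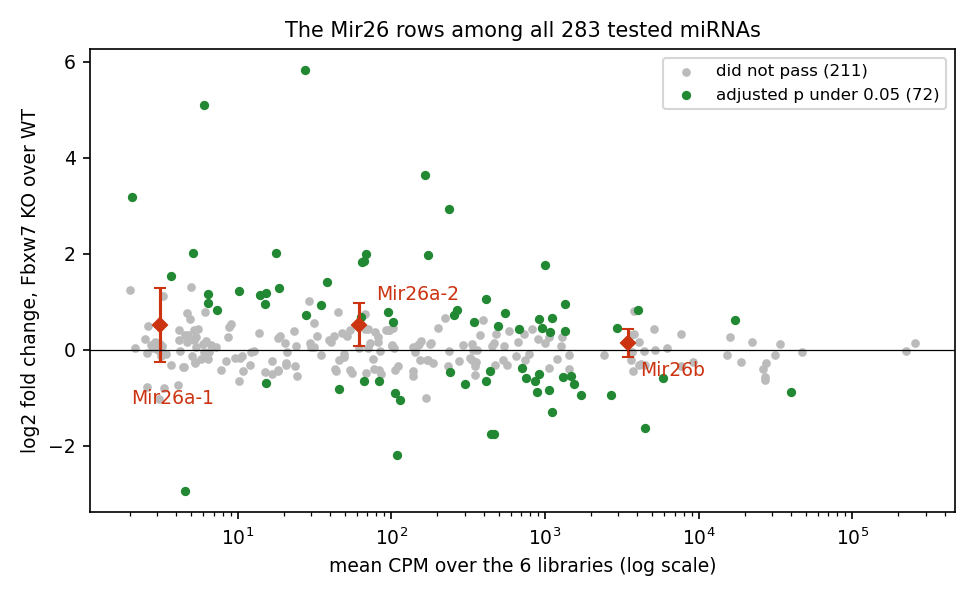
Log2 fold change (Fbxw7 KO over WT) against mean CPM over the 6 libraries on a log axis, for the 283 tested miRNAs; green points have an adjusted p under 0.05 and grey points do not. Red diamonds are the Mir26 rows with 95% intervals, at 0.52 (Mir26a-1), 0.53 (Mir26a-2) and 0.14 (Mir26b), inside the range of miRNAs that did not pass.

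The balance between Mir26a-2 and Mir26b counts within a library does not depend on how libraries are scaled. Reads of miR-26a-5p may lie outside the Mir26a-2 counts, so this balance was not read as one between the mature miRNAs. For each 100 counts of Mir26b there were 1.54, 1.58 and 1.48 counts of Mir26a-2 in WT replicates 1 to 3. In Fbxw7 KO replicates 1 to 3 there were 1.82, 1.88 and 2.28. The Fbxw7 KO libraries were all higher, averaging 1.99 ± 0.251 against 1.53 ± 0.0485 for WT (SD, n = 3 each). As a percent of both rows together, the 95% Wilson intervals for counting error were 1.35% to 1.71%, 1.37% to 1.77% and 1.26% to 1.7% in WT. They were 1.56% to 2.05%, 1.601% to 2.12% and 2.01% to 2.47% in Fbxw7 KO. The interval of Fbxw7 KO replicate 3 lay above all WT intervals, while those of Fbxw7 KO replicates 1 and 2 overlapped them. This ratio is a description of the chosen members and was given no test. It uses the same Mir26a-2 counts that separated above, so it is not a second, separate result. How often the ratio of other row pairs separates was not examined. Of single tested miRNAs, 43.8% separated in either direction.

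The family's share of all counts was small in both genotypes. The 3 rows together held 0.351%, 0.324% and 0.310% of counts in WT replicates 1 to 3 and 0.362%, 0.352% and 0.421% in Fbxw7 KO replicates 1 to 3. With unscaled totals the lowest Fbxw7 KO library stood barely above the highest WT library, and Fbxw7 KO replicate 3 was again the highest. With TMM-scaled totals the groups overlapped. Mir26b, nearly all of the family, was then at 3438 CPM in Fbxw7 KO replicate 2 and 3483 CPM in WT replicate 1. The counts of Mir26a-2 and Mir26a-1 were too few to reverse this order. Among single tested miRNAs, 23.7% had all Fbxw7 KO libraries above WT in CPM, and 43.8% separated in either direction. The difference of the mean shares was 0.0499 percentage points, 0.0365 with TMM-scaled totals, and 0.0286 without Fbxw7 KO replicate 3. Of the family's FPKM, Mir26b made up 98.4% ± 0.0546 for WT and 97.9% ± 0.228 for Fbxw7 KO (SD, n = 3 each). Because reads of miR-26a-5p may be missing from the counts, neither share was read as an amount of mature miR-26.

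The library-to-library pattern of each member was set beside those of all other tested miRNAs by Pearson's r of log2 CPM over the 6 libraries, which share the scaling factors. These r values describe likeness and carry no test. Mir26b was most like Mir542 (r = 0.98), Mirlet7g (0.97), a let-7 miRNA, and Mir322 (0.93). Mir542 and Mir322 belong to the same cluster on chromosome X. For all 4 WT replicate 3 was the lowest library, and Fbxw7 KO replicate 3 was the highest. None of these 3 passed the edgeR test (adjusted p = 0.225, 0.438 and 0.568).

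Mir26a-2 was most like Mir1839 (r = 0.99), whose row joins 2 positions on chromosome 7, Mir378a (0.97) and Mir199b (0.97). Mir378a and Mir199b rose in Fbxw7 KO, with log2 fold changes of 0.77 (edgeR adjusted p = 0.0195) and 0.65 (edgeR adjusted p = 0.0203), and Mir1839 had 0.33 (edgeR adjusted p = 0.114). The Mir378a call was lost without WT replicate 1 (adjusted p = 0.0631), and that of Mir199b when replicate 2 of either genotype was left out (up to 0.0736). Mir26a-1 was most like Mir3095 (0.96), Mir652 (0.95) and Mir3970 (0.93), a likeness that rests on 7 to 17 counts of Mir26a-1 a library. Within the family, Mir26a-2 and Mir26b had r = 0.92 (Spearman's rho 0.6). Without WT replicate 3 and Fbxw7 KO replicate 3, the libraries farthest from the median of Mir26a-2, r was 0.07 over 4 libraries, so the likeness rests on those libraries. Mir26a-1 had r = 0.64 with Mir26a-2 and 0.68 with Mir26b, and both were negative over 4 libraries, without WT replicates 2 and 3 (−0.29 and −0.55).

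**Figure D4:**
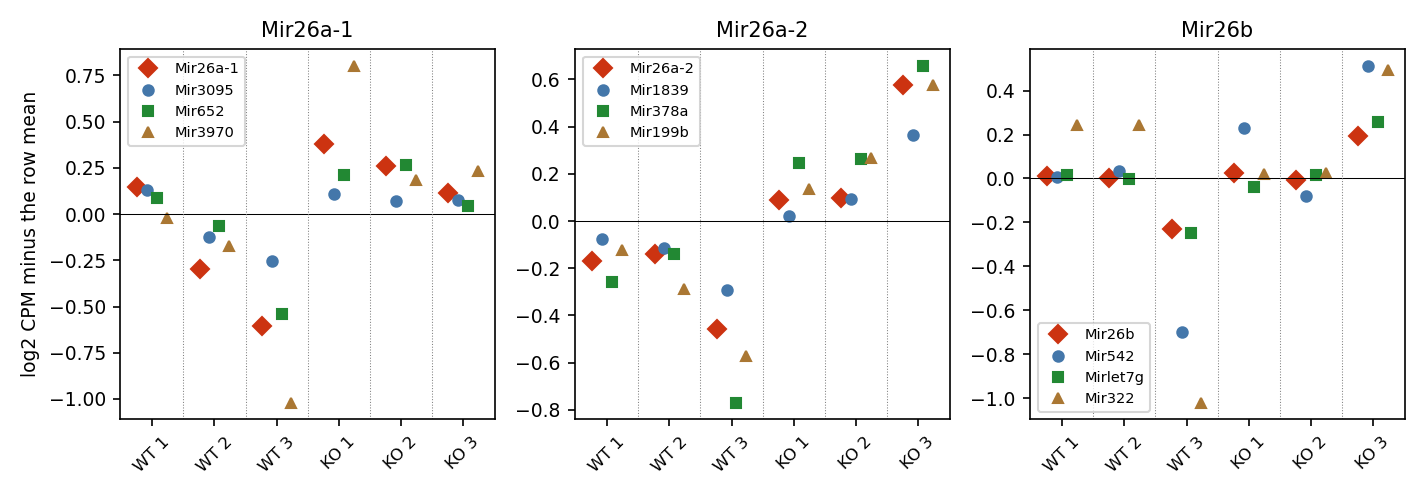
Log2 CPM minus the mean of the row in each of the 6 libraries, for each Mir26 member (red diamonds) and the 3 tested miRNAs with the highest Pearson's r to it. WT replicate 3 is the lowest library in each panel for the Mir26 member, and Fbxw7 KO replicate 3 is the highest for Mir26a-2 and Mir26b.

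Other miRNAs that Myc is known to repress were taken as a list of relatives in regulation, 19 of whose 22 rows could be tested. Of these 4 rose (21.1%, against 15.2% of all tested miRNAs), 1 fell (5.26%, against 10.2%) and 14 did not pass, with a median log2 fold change of 0.24 against 0.05 over all tested miRNAs. Mir29a, known to hold down collagen messages, averaged 13648 ± 852.5 CPM in WT against 20929 ± 1300 in Fbxw7 KO (SD, n = 3), with a log2 fold change of 0.62 (edgeR adjusted p = 0.00789). Mir195a, of the miR-15/16 seed family, went from 10.8 ± 4.11 to 26.3 ± 7.30 CPM (1.30, edgeR adjusted p = 0.0169). Mir34a, a p53 target, had 0.49 (edgeR adjusted p = 0.0365) and Mir15a 0.72 (edgeR adjusted p = 0.0415). The miRNA that fell, named after its value was seen, was Mirlet7a-2 (−0.38, edgeR adjusted p = 0.0419). Mirlet7a-1 (−0.08, edgeR adjusted p = 0.750) and Mir16-1 (0.44, edgeR adjusted p = 0.189), on the same list, did not pass. They too were named after their values were seen. Over 16 alternatives the call of Mir29a held in 15 (lost without Fbxw7 KO replicate 2), of Mir195a in 15 (lost without WT replicate 1), of Mir34a in 10, of Mir15a in 8 and of Mirlet7a-2 in 6. The list's count of 5 changed miRNAs was 2 when replicate 1 or 2 of either genotype was left out, and 3 without WT replicate 3. The background of all tested miRNAs was also lower without each of these libraries, as given above.

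Other miRNAs known to target Ezh2 gave 3 tested rows of 7, of which 1 rose (33.3%, against 15.2% of all tested) and 2 did not pass. Mir101b went from 943 ± 12.2 to 1227 ± 60.2 CPM (SD, n = 3), a log2 fold change of 0.38 (edgeR adjusted p = 0.0369). Its paralog Mir101a, named after its value was seen, had −0.37 (edgeR adjusted p = 0.126). The call of Mir101b held in 7 of 16 alternatives and was lost in DESeq2, among others (adjusted p up to 0.143). The list's count of changed miRNAs was 0 when replicate 1 or 2 of either genotype was left out. Without WT replicate 3 it was 2, with Mir101b at a log2 fold change of 0.38 (edgeR adjusted p = 0.0478) and Mir101a at −0.53 (edgeR adjusted p = 0.0185), in opposite directions.

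Among the 1130 rows with a single position, 142 tested miRNAs, the Mir26 hairpins included, lie on the strand of a protein-coding gene that contains them. Of these 20 rose and 7 fell (19% changed, against 25.4% of all tested), with a median log2 fold change of 0.08. The Mir26 members were among the 115 that did not pass.

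Across the 16 alternative analyses the members' log2 fold changes stayed positive and none passed the test. Mir26a-2 ranged from 0.35 to 0.61 (adjusted p from 0.0656 to 0.179), Mir26b from 0.01 to 0.20 (0.288 to 0.960) and Mir26a-1 from 0.33 to 0.80 (0.160 to 0.566).

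**Figure D5:**
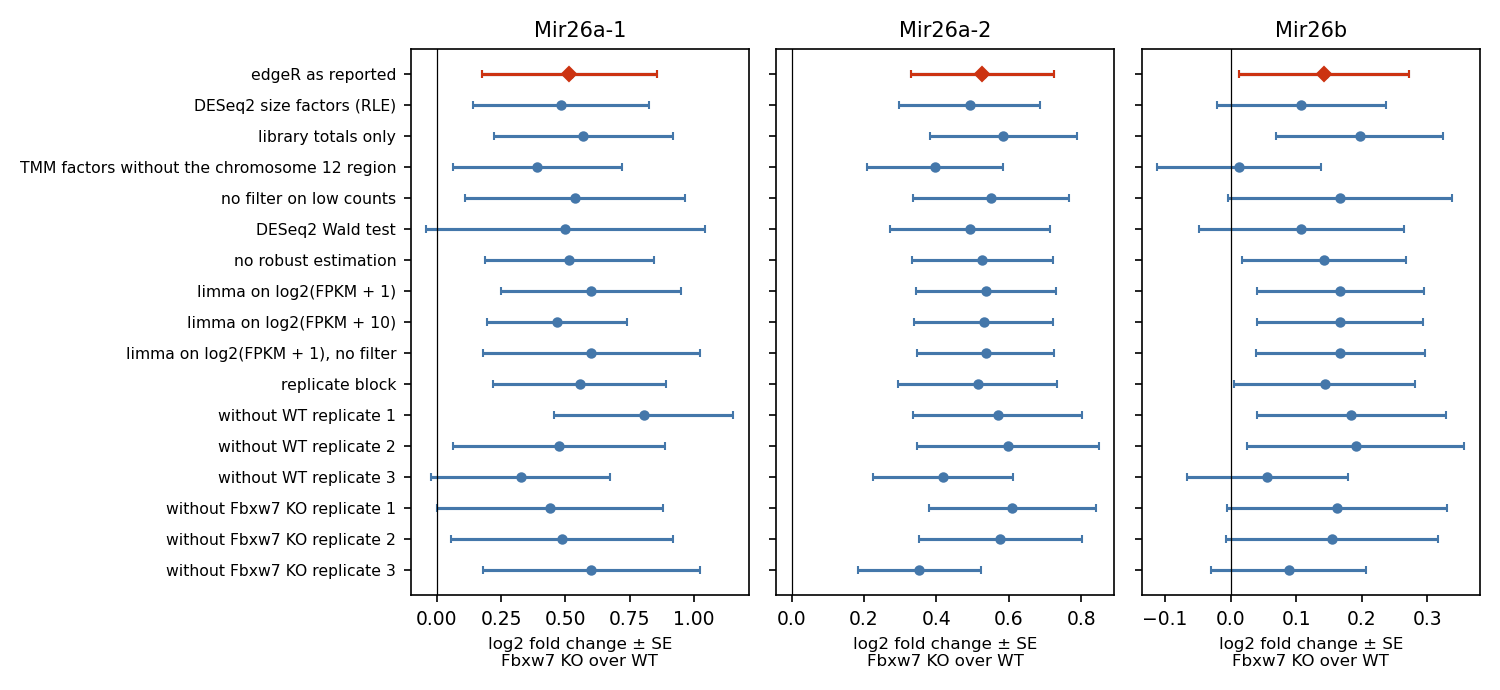
Log2 fold change ± SE (Fbxw7 KO over WT) of each member in edgeR as reported (red diamond) and under 16 alternatives (blue circles), each panel with its own x scale. All values lie above 0, from 0.01 for Mir26b with factors from outside the chromosome 12 region to 0.80 for Mir26a-1 without WT replicate 1.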

How the data were processed

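For 6 libraries the authors deposited read counts, 1 value for each named miRNA gene. Per the file headers, featureCounts 1.6.4 summed reads by gene name without regard to strand. The submitters' processing notes name the build mm10 and, with no stated role, Cufflinks 2.2.1, TopHat2 2.1.1, deepTools and SAMtools 1.5. Trimming and alignment settings were not given in the sources used here. The FPKM values the authors deposited equal, in all 1155 rows within a relative 1e-06, the counts divided by length and by TMM-scaled totals.

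The count test was edgeR 4.0.16 under R 4.3.3 (TMM factors, filterByExpr with minimum count 10 and minimum total 15, robust glmQLFit, glmQLFTest, 2-sided, genotype as the only term). This left 283 rows, over which p-values were adjusted by Benjamini-Hochberg, with a threshold of 0.05. SEs were taken from the F statistic. CPM use TMM-scaled totals. The procedure was also run on simulated counts with the same spread setting for every miRNA, which does not show how it performs on these data. Alternatives used DESeq2 1.42.0, limma 3.58.1 on log2(FPKM + 1) or log2(FPKM + 10), other scalings and filters, a replicate block, and each library left out.

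Members and lists were chosen with earlier results of these data known. The named miRNAs are the members, the 3 rows with the highest Pearson's r to each (log2 CPM, prior count 2), up to 4 changed rows with the lowest p per list, and neighbours in mean FPKM. Mirlet7a-2, Mirlet7a-1, Mir101a, the miRNAs that share a seed with a member and the cell type markers fall outside that rule.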

Additional observations from a re-analysis of the deposited data

How the results depend on the processing

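No alternative reversed a member or brought one past the threshold, and Mir26a-1 had only 7 to 17 counts a library. The number of changed miRNAs among all tested was 34 to 78 with 1 library left out, against 72. For the Myc-repressed list (5 changed) it was 3 with factors from outside the chromosome 12 region, 2 with limma on log2(FPKM + 1) without a filter, and 2 to 4 with 1 library left out. For the Ezh2-targeting list (1 changed) it was 0 with DESeq2 size factors, with factors from outside the chromosome 12 region, with no filter on low counts, in the DESeq2 Wald test and in limma without a filter, and 0 to 2 with 1 library left out. The cause of these moves was not tested. The family's share of counts differed by 0.151 percentage points between genotypes when the 2 most abundant rows were left out of the totals, which makes every share larger, and by 0.0286 to 0.0631 with 1 library left out of the usual totals. The Mir26b percent of family FPKM differed by −0.549 to −0.34 percentage points with 1 library left out.

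With the replicate number as a block, 76 miRNAs changed, 3 of them in the Myc-repressed list, and the members had log2 fold changes of 0.56 (Mir26a-1), 0.51 (Mir26a-2) and 0.14 (Mir26b), none past the threshold. The samples share only a number: deviations of same-numbered libraries correlated at −0.06, 0.14 and 0.16, and WT replicate 1 correlated best with Fbxw7 KO replicate 2 (0.10).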

Other observations

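A mature sequence held by more than 1 row, as for Mir26a-1 and Mir26a-2, was found outside this family too. The RefSeq table gives a mature sequence for 974 of the 1155 rows, and for 90 of them another entry contains the same sequence. Of these, 37 stood at 0 counts in all libraries and 36 passed the count filter, with a median level of 68.0 CPM. Of the 884 others, 336 stood at 0 and 219 passed the count filter, with a median level of 101.8 CPM. The 181 rows with no mature sequence in the RefSeq table, 28 of them tested, were not classified. Among the tested rows with a shared mature sequence 5 rose and 1 fell in Fbxw7 KO (16.7% changed), and among those without, 33 rose and 26 fell (26.9%). The difference between these shares was not tested.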
